A study of Mus musculus with 6 samples.

Results

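In mouse embryos, 1801 sites of open chromatin lay away from gene ends, were called as peaks in both the atria and the posterior second heart field, and were relatively stronger in the second heart field. They were chosen from the deposited peak lists of the atria (labelled HT) and of the posterior second heart field (pSHF). An HT and a pSHF peak formed a pair if each overlapped the other by at least 1 bp and overlapped no further peak, which gave 22574 pairs. For each pair the log2 ratio of HT to pSHF fold enrichment over background, a value from the authors' peak caller, was computed, and its median over all pairs (0.29, an HT-to-pSHF ratio of 1.22) was subtracted. A pair was called distal when both summits lay over 1 kb from either end of any annotated gene, which held for 11504 pairs. The 1801 sites are the distal pairs with a centred ratio of -0.5 or less, 15.7% of distal pairs, and are called pSHF-leaning below. At that limit the uncentred pSHF fold was 1.16 times the HT fold. Of the other distal pairs, 1612 (14.0%) had a centred ratio of 0.5 or more and are called HT-leaning, and 8091 lay between and are called balanced. Among all pairs 12.1% passed the limit of -0.5, and among the 11070 gene-end pairs 8.46% did. At or above 0.5 lay 11.2% of all pairs and 8.26% of gene-end pairs.

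Both tissues were taken at embryonic day 10 from CD1 mice, an outbred stock, with no mutation (labelled WT), as 3 samples of atria and 3 samples of pSHF. Tissue was microdissected, pooled over embryos and dissociated before ATAC-seq, in which the Tn5 transposase inserts adapters into accessible DNA. The labels do not say how many embryos entered a sample. The series is about Hedgehog signaling and when progenitors differentiate, and the comparison of tissues sets the differentiated atria against progenitors that have yet to join them. Each tissue had 1 peak list and no value per sample, so no spread between replicates, no SD and no test can be given, and every value below belongs to the list of that tissue.

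The second heart field is a population of splanchnic mesoderm behind the forming heart. Its posterior portion supplies cells to the atria, the atrial septum and the venous pole, and Hedgehog signals from the foregut endoderm act on it. Open sites away from gene ends include many enhancers, the elements that bind transcription factors and act on promoters at a distance. A site that is open in both tissues but weaker in one can be less accessible in each cell or be open in fewer of the cells, and a dissected piece does not tell these apart.

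Peaks that overlapped no peak of the other list are called restricted, and over the genome 22400 were HT-restricted and 15132 (40.3%) pSHF-restricted. At the 22 sarcomere genes 65 peaks were HT-restricted and 19 pSHF-restricted. At the 20 genes of second heart field progenitors 35 were HT-restricted and 52 pSHF-restricted. At marker genes of other cell types there were 20 HT-restricted and 28 pSHF-restricted peaks at foregut endoderm genes, 11 HT-restricted and 29 pSHF-restricted at somite genes, and 29 HT-restricted and 7 pSHF-restricted at erythroid genes. The counts were 21 HT-restricted against 22 pSHF-restricted at neural tube genes, 23 HT-restricted against 17 pSHF-restricted at neural crest genes and 19 HT-restricted against 17 pSHF-restricted at epicardial genes. They were 64 HT-restricted against 36 pSHF-restricted at endothelial genes and 15 HT-restricted against 8 pSHF-restricted at macrophage genes. These counts do not measure how many cells of a type either piece held, and their part in the results was not tested.

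Sequence could be shown for the sites that lay over a promoter inside a gene, because RefSeq promoter windows run from 250 bases before to 50 bases after an annotated start. The windows used here covered 19 chromosomes, and on these 55 of 1739 pSHF-leaning sites had their pSHF summit in such a window. Below are the windows of the 3 of these sites with the lowest ratios, at Dpp6, Trak1 and Iqsec1, and those at Ppp1r32, Amotl1 and Mecom, genes described further on; this set was chosen after the values were seen. Coordinates and sequences are from RefSeq, build GRCm38.p6, read 5′ to 3′ on the strand of the gene. Capitals mark the pSHF summit and up to 10 bases on each side.
Dpp6, chr5:27261685-27261984, plus strand: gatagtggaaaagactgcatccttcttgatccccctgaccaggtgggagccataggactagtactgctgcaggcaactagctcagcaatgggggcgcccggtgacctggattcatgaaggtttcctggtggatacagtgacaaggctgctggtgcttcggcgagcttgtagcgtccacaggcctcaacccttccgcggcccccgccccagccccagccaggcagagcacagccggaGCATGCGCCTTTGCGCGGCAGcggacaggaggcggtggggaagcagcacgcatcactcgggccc
Trak1, chr9:121403196-121403495, plus strand: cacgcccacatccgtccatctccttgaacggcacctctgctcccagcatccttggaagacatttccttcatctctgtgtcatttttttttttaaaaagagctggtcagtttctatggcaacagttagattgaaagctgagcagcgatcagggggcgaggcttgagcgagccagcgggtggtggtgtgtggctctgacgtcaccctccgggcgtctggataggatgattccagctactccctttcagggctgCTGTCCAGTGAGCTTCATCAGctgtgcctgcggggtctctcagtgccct
Iqsec1, chr6:90810074-90810373, minus strand: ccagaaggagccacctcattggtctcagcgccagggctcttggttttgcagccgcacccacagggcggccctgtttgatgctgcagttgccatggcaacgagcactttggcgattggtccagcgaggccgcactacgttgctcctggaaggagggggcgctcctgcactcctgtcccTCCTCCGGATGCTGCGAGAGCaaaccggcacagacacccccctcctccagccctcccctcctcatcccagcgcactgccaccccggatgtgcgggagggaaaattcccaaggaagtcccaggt
Ppp1r32, chr19:10482879-10483178, minus strand: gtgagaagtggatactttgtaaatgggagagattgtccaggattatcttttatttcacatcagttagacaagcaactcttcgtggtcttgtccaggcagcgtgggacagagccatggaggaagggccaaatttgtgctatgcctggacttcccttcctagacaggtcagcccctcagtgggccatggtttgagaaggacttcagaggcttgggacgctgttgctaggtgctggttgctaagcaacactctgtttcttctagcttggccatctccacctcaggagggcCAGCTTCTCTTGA
Amotl1, chr9:14614951-14615250, minus strand: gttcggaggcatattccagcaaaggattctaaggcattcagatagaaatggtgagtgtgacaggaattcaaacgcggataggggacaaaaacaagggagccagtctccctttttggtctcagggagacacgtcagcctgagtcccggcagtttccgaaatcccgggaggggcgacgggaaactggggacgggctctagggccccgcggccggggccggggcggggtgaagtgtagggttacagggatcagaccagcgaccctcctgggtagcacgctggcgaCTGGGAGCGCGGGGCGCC
Mecom, chr3:30013155-30013454, minus strand: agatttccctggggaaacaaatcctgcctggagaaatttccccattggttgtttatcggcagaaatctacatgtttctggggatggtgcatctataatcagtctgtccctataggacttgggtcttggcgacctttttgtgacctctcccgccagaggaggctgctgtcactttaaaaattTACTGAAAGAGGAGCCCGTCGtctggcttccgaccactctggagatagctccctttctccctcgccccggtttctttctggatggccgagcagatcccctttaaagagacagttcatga

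The fold enrichment at the Dpp6 window was 4.19 in HT and 9.20 in pSHF, a centred ratio of -1.42. Dpp6 encodes an auxiliary subunit of potassium channels, and the summit lay inside the gene body. At Trak1, which encodes an adaptor for mitochondrial transport, it was 5.34 in HT and 9.83 in pSHF (centred -1.17). At Iqsec1, which encodes an exchange factor for ARF GTPases, it was 3.63 in HT and 6.68 in pSHF (centred -1.16). These 3 had the larger gaps, while the windows at Amotl1 (5.32 in HT and 6.41 in pSHF) and Mecom (4.38 in HT and 5.10 in pSHF) lay close to the limit. The Ppp1r32 window was between them, with 3.87 in HT and 6.0 in pSHF (centred -0.92).

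Across the 1801 sites, enrichment was modest in the pSHF, and in the atria it was lower than at distal pairs in general. Because the ratio of these values chose the sites, they are given as a description. The HT fold ranged from 2.62 to 10.5 with a median of 4.39 (quartiles 3.84 and 4.93), and the pSHF fold from 3.21 to 13.2 with a median of 5.92 (5.15 and 7.0). All distal pairs had medians of 5.95 in HT and 4.96 in pSHF. The centred ratio had a median of -0.70 (quartiles -0.86 and -0.59) and reached -1.75. It was at or below -1 at 228 sites (12.7%). In the authors' deposited table the median −log10 q of these peaks was 3.17 in HT and 6.97 in pSHF, and the lowest over each whole list was 1.31 in HT and 1.30 in pSHF. In the authors' deposited table a −log10 q under 2 was found for 248 HT peaks (13.8%), and one of at least 5 for 384 HT peaks (21.3%) and 1334 pSHF peaks (74.1%). Over all distal pairs the authors' deposited −log10 q was under 2 for 2.83% of HT peaks. It was at least 5 for 66.7% of HT peaks and 46.6% of pSHF peaks.

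**Figure D1:**
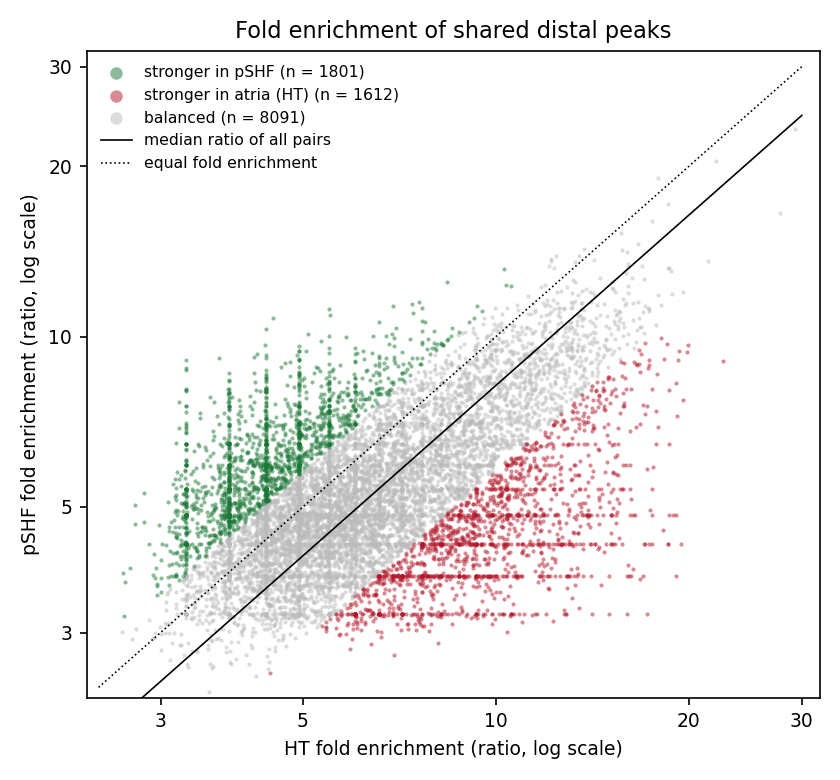
Fold enrichment of each distal pair in HT and pSHF, as given by the authors' peak caller, with the pSHF-leaning, HT-leaning and balanced pairs in separate colours. The pSHF-leaning pairs have a median of 4.39 in HT and 5.92 in pSHF and lie toward low folds, whereas the HT-leaning pairs have medians of 9.63 in HT and 4.31 in pSHF.

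On the centred ratio, which chose them, the pSHF-leaning sites had a median of -0.70 and the HT-leaning sites one of 0.75. In deposited fold the 2 limits are unequal, since centring places them at a pSHF over HT ratio of 1.16 for pSHF-leaning sites and at an HT over pSHF ratio of 1.73 for HT-leaning sites. HT-leaning sites had a median fold of 9.63 in HT and 4.31 in pSHF. Their median −log10 q in the authors' deposited table was 17.4 in HT and 3.25 in pSHF. The median HT peak was 185 bp wide and the median pSHF peak 294 bp wide at pSHF-leaning sites, against 336 bp in HT and 224.5 bp in pSHF at HT-leaning sites. The pSHF peak was the wider one at 78.8% of pSHF-leaning sites (exact Clopper-Pearson 95% interval 76.9 to 80.7), at 28.7% of HT-leaning sites (26.5 to 31.0) and at 58.0% of balanced sites (56.9 to 59.0). Width was measured on the same peaks as fold and is no independent property of the sites. The summits of the 2 tissues lay a median of 62 bp apart (quartiles 33 and 100), close to the 64 bp of all distal pairs. More than 1 summit was reported in 3.94% of HT peaks and 21.2% of pSHF peaks at the pSHF-leaning sites. Over all distal pairs it was 11.2% of HT peaks and 21.1% of pSHF peaks, so the pSHF share was that of distal pairs in general.

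The reads behind these values were few. The number of reads over each summit, the pileup, was recovered from the deposited fold and −log10 p, and a whole number of reads matched the deposited −log10 p to within 0.01 at 100% of the summits. At pSHF-leaning sites the median pileup was 8 reads in HT (quartiles 7 and 10) and 13 in pSHF (10 and 16). The pileup was lower in HT at 1752 sites (97.3%), and its own centred ratio was at or below -0.5 at 1702 (94.5%). Because pileup was recovered from the fold that chose the sites, these 2 counts are a description and support nothing. The exact Poisson 95% intervals of the HT and pSHF pileups did not overlap at 16 sites (0.888%). After the HT interval was divided by the median pileup ratio of all pairs, they did not overlap at 74 sites (4.11%, 3.24 to 5.13), against 360 HT-leaning sites (22.3%, 20.3 to 24.4). For most single sites, then, the intervals of the 2 tissues overlapped. Overlap does not show that a difference lay within counting error, because 2 counts can differ beyond it while their intervals overlap. These intervals do not cover variation between embryos. The caller's local background also differed, with a median of 0.932 reads in HT and 1.22 in pSHF and a median log2 ratio of -0.20, against -0.06 over all distal pairs.

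**Figure D2:**
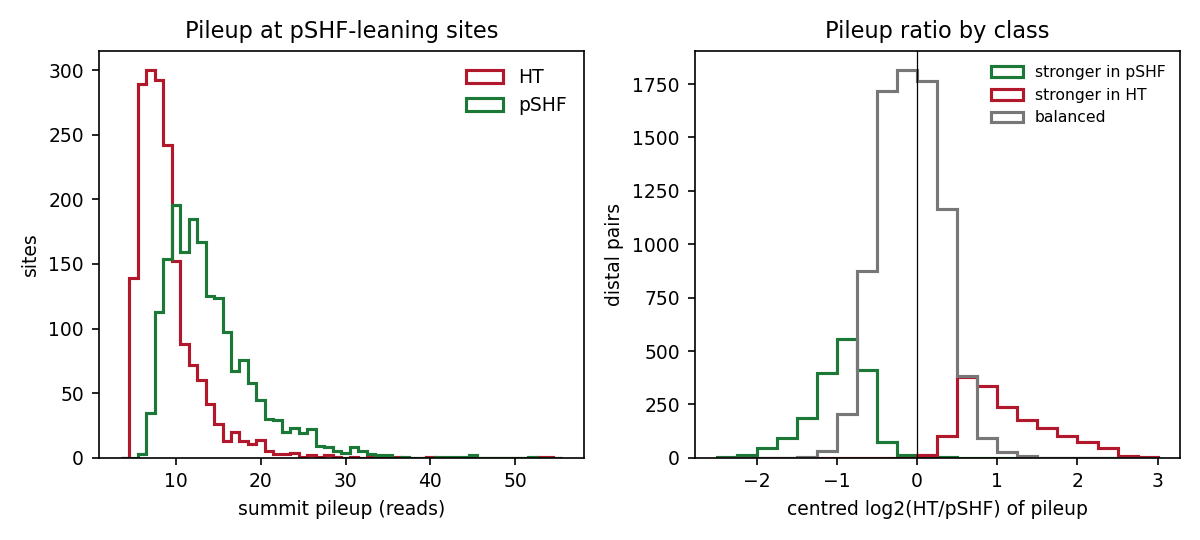
Left, number of pSHF-leaning sites by reads over the summit in HT and pSHF; right, number of distal pairs by centred log2 ratio of HT to pSHF reads for the pSHF-leaning, HT-leaning and balanced pairs. The pSHF-leaning sites have a median of 8 reads in HT and 13 in pSHF, and a median centred pileup ratio of -0.91.

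The site with the lowest ratio lay inside Prkg1, the gene of a cGMP-dependent protein kinase that relaxes smooth muscle. At chr19:31107168-31107551 the fold was 3.29 in HT and 9.09 in pSHF, a centred ratio of -1.75. There were 5 reads over the summit in HT (exact Poisson 95% interval 1.62 to 11.7) and 17 in pSHF (9.90 to 27.2). The next site, at chr2:94919493-94919736, had a fold of 3.29 in HT and 8.80 in pSHF, lay 112579 bp from the nearest gene end and had no protein-coding gene within reach. The third, at chr4:22946779-22947230 inside the long noncoding RNA gene Gm30886, had 3.29 in HT and 8.72 in pSHF. In these 3 the HT peak held 5 reads, the smallest pileup in either list, so the HT value was at its floor.

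Among the 10 sites of lowest ratio, those with the most pSHF reads lay at A430057M04Rik and Prok2. The site at chr14:21891536-21892235, 35007 bp from A430057M04Rik, had 8 reads in HT (3.45 to 15.8) and 33 in pSHF (22.7 to 46.3), with folds of 4.49 in HT and 10.8 in pSHF. Its peak was 121 bp wide in HT and 700 bp wide in pSHF. The site at chr6:99804277-99804803, 78083 bp from Prok2, which encodes a secreted chemokine-like peptide, had 7 reads in HT (2.81 to 14.4) and 26 in pSHF (17.0 to 38.1). At both sites the intervals of the 2 tissues did not overlap. A further site lay 21185 bp from Efnb2, the gene of ephrin-B2, a ligand of arterial endothelium, with a fold of 3.20 in HT and 7.65 in pSHF. One lay inside Fgf14, which encodes an intracellular modulator of sodium channels, with 4.39 in HT and 10.3 in pSHF. The last 3 of the 10 had folds of 3.29 in HT and 8.01 to 8.08 in pSHF. They lay near Me3, the gene of a mitochondrial malic enzyme, near Nup50, a nuclear pore gene, and on chromosome 12 with no protein-coding gene in reach of 100 kb.

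The sites with the highest pSHF fold were also strong in the atria. At Ppp3cc, the gene of a calcineurin catalytic subunit, the fold was 10.3 in HT and 13.2 in pSHF. At chr2:48441178-48441723, inside the noncoding gene Gm13481, it was 8.39 in HT and 12.5 in pSHF. Sites inside 9430038I01Rik and Prdx4, a peroxiredoxin gene, had folds of 10.4 and 10.5 in HT, against 12.3 each in pSHF. The site 16399 bp from Lrrc38 had 7.58 in HT and 11.5 in pSHF. At 9430038I01Rik the summit held 53 reads in HT and 52 in pSHF, and at Prdx4 it held 26 in HT and 27 in pSHF. Reads without centring were thus nearly equal, while local background was higher in HT. It was 4.20 in HT and 3.29 in pSHF at 9430038I01Rik, and 1.56 in HT and 1.27 in pSHF at Prdx4. After centring, the pileup ratio was -0.29 and the fold ratio -0.54 at 9430038I01Rik. At Prdx4 they were -0.38 and -0.51. At the limit itself, the last sites inside lay at Crtac1 (5.77 in HT and 6.69 in pSHF), Snx31 (5.96 in HT and 6.91 in pSHF) and Casz1 (3.38 in HT and 3.93 in pSHF). The first pairs outside lay at Inpp5f (4.36 in HT and 5.05 in pSHF), Agpat5 (6.01 in HT and 6.96 in pSHF) and Gm973 (4.75 in HT and 5.50 in pSHF).

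Position within and between genes was not part of the rule beyond the limit of 1 kb. The pSHF-leaning sites lay inside a protein-coding gene somewhat less often than balanced sites, with 921 sites or 51.1% (48.8 to 53.5), against 53.3% (50.8 to 55.7) of HT-leaning and 57.1% (56.0 to 58.2) of balanced sites. Between genes of any kind lay 39.7% (37.4 to 42.0) of pSHF-leaning, 38.1% (35.7 to 40.5) of HT-leaning and 35.3% (34.2 to 36.3) of balanced sites. The median distance to the nearest gene end was 11236 bp (quartiles 4630 and 27697), against 10950.5 bp for HT-leaning and 8969 bp for balanced sites. A protein-coding gene lay within 100 kb of 1571 sites (87.2%, 85.6 to 88.7), against 90.2% (88.6 to 91.6) of HT-leaning and 91.4% (90.8 to 92.0) of balanced sites. The intervals count peaks and not embryos.

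The share of distal pairs that leaned to the pSHF was lowest just outside gene ends. It was 12.9% (11.8 to 14.0) for summits from 1 to 5 kb of a gene end, 16.9% (15.3 to 18.5) from 5 to 10 kb, 16.9% (15.8 to 18.0) from 10 to 50 kb, 17.3% (14.8 to 19.9) from 50 to 100 kb and 18.2% (14.4 to 22.6) from 100 to 500 kb. Beyond 500 kb lay 6 distal pairs, of which 2 leaned to the pSHF and 0 to HT. HT-leaning pairs made up 11.5% from 1 to 5 kb, and between 13.0% and 15.7% in the 4 bins from 5 to 500 kb. By chromosome the share ran from 13.3% on chromosome 7 (11.0 to 15.9) to 21.3% on chromosome 14 (17.6 to 25.5), where 95 of 445 distal pairs leaned to the pSHF and 10.1% leaned to HT. The next highest share was 17.4% on chromosome 12. Gene-end pairs of chromosome 14 passed the same limit in 9.07%, near the 8.46% of all gene-end pairs.

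The surroundings of the sites were measured on other peaks of the same lists. An HT-restricted peak lay within 50 kb of 68.7% (66.5 to 70.8) of pSHF-leaning sites, against 76.1% (74.0 to 78.2) of HT-leaning and 71.9% (71.0 to 72.9) of balanced sites. A pSHF-restricted peak lay within 50 kb of 61.0% (58.7 to 63.3), against 55.3% (52.9 to 57.8) of HT-leaning and 59.4% (58.3 to 60.5) of balanced sites. More pSHF-restricted than HT-restricted peaks were found around 28.5% (26.5 to 30.7) of pSHF-leaning sites, 19.3% (17.4 to 21.3) of HT-leaning sites and 25.5% (24.6 to 26.5) of balanced sites. The lean of a site and the kind of restricted peak nearby thus went the same way, by a few percentage points from balanced sites and by more from HT-leaning sites. Around 44.0% of pSHF-leaning sites the HT-restricted peaks were still the more numerous.

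**Figure D3:**
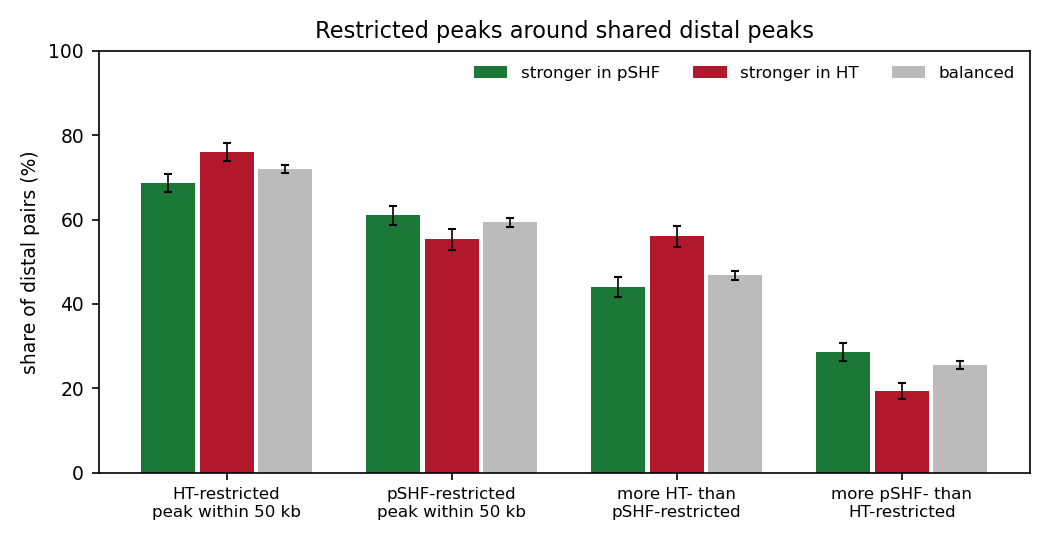
Percentage of pSHF-leaning, HT-leaning and balanced distal pairs with restricted peaks of each kind within 50 kb; lines on the bars are exact Clopper-Pearson 95% intervals over peaks. An HT-restricted peak lay within 50 kb of 68.7% of pSHF-leaning and 76.1% of HT-leaning sites, and a pSHF-restricted peak within 50 kb of 61.0% of pSHF-leaning and 55.3% of HT-leaning sites.

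Neighbouring shared sites leaned to the pSHF about as often as distal pairs in general. Of the 1801 sites, 987 had another distal pair within 50 kb, and 230 of the 1500 distal pairs so found (15.3%) leaned to the pSHF, the same as the 15.3% around balanced sites and near the 15.7% of all distal pairs. Around HT-leaning sites, by contrast, 19.3% of the 1369 neighbours leaned to HT, against 14.0% of all distal pairs and 13.2% around balanced sites. Gene-end pairs within 50 kb of pSHF-leaning sites had a median centred ratio of 0.03, and 98 of 1125 (8.71%) were at or below -0.5. At closer range, 114 sites (6.33%) had another pair with its summit within 1 kb. Of the 120 pairs at that distance, 97 were balanced, 14 leaned to the pSHF and 9 leaned to HT, and their median fold was 5.96 in HT and 4.94 in pSHF. Around balanced sites, 434 of 564 pairs at that distance were balanced.

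Each site was assigned to the nearest protein-coding gene body within 100 kb, a label of position that need not name the gene a site acts on. The 1571 assigned sites were spread thinly over 1398 of the 6299 genes with a distal pair. A single site was found at 1248 genes, 2 at 134, 3 at 12, 4 at 3 and 7 at 1 gene. The ends of these genes did not lean to the pSHF. Genes with a pSHF-leaning and no HT-leaning site had a median centred ratio of 0.01 at their gene-end pairs (569 of 1185 genes had such a pair), against -0.02 at genes with an HT-leaning and no pSHF-leaning site and 0.03 at genes with balanced sites alone. At or below -0.5 lay 9.31% of the 569, against 7.11% at genes with balanced sites alone. Among the 150 genes with at least 2 pSHF-leaning sites the median was -0.02 and 4.76% were at or below -0.5. Of the restricted peaks at genes with a pSHF-leaning and no HT-leaning site, 2656 were HT-restricted and 2130 pSHF-restricted, a pSHF share of 44.5%. That share was 34.2% at genes with an HT-leaning and no pSHF-leaning site and 40.2% at genes with balanced sites alone.

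Maml3 had the most sites. It encodes a mastermind-like coactivator of Notch target genes, and its gene spans 418 kb of the minus strand of chromosome 3. Of its 16 distal pairs 7 leaned to the pSHF, 9 were balanced and 0 leaned to HT. Near the gene's centre the site at chr3:51924522-51924802 had a fold of 3.84 in HT and 4.93 in pSHF. The site at chr3:52007644-52007995 had 4.87 in HT and 7.26 in pSHF, with 9 reads in HT and 18 in pSHF. The lowest ratio was at chr3:52029737-52029989, with 3.27 in HT and 5.78 in pSHF (centred -1.11) and 5 reads in HT and 14 in pSHF. The site at chr3:52045956-52046453 had 4.35 in HT and 5.81 in pSHF, while the adjacent balanced pair, at chr3:52046925-52047390, had 7.42 in HT and 5.88 in pSHF. The other 3 sites had folds of 4.48 to 4.52 in HT and 5.6 to 6.14 in pSHF. The gene-end pair of Maml3 had a centred ratio of -0.00, and 9 HT-restricted and 11 pSHF-restricted peaks were assigned to the gene. By the nearest gene end in place of the gene body, 5 sites went to Maml3.

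**Figure D4:**
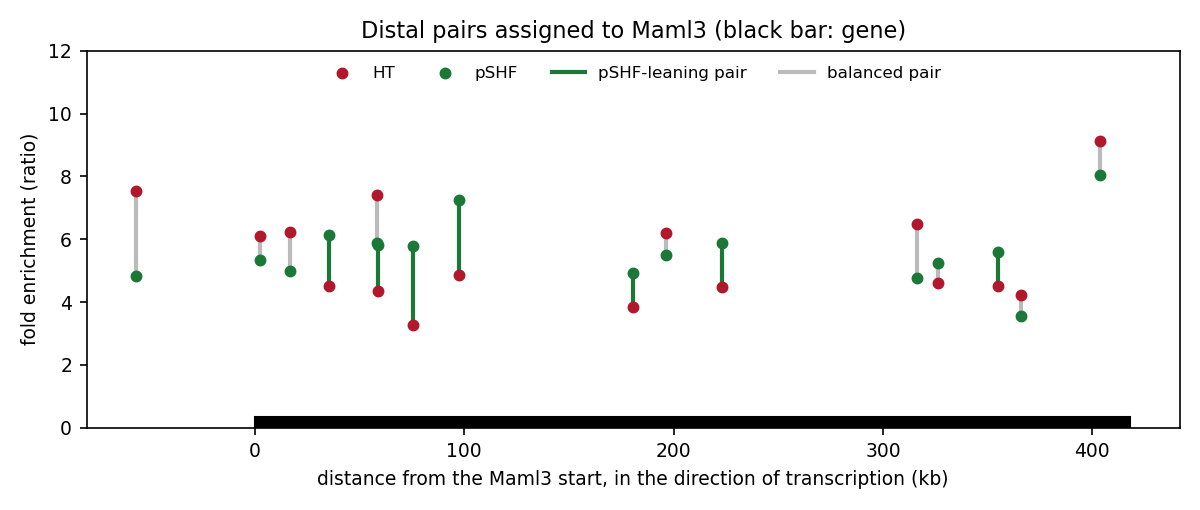
Fold enrichment in HT and pSHF of the 16 distal pairs at Maml3, by distance in kb from the gene's start along its strand. The 7 pSHF-leaning sites had HT folds of 3.27 to 4.87 and pSHF folds of 4.93 to 7.26, and balanced pairs lay between them.

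After Maml3 came Nfia, Sema3a and Zmiz1 with 4 sites each. Nfia, a nuclear factor I gene known for its role in glial cells, also had 4 HT-leaning pairs and 8 balanced ones, so its sites leaned both ways. Its site at chr4:98003759-98003981 had 3.5 in HT and 5.89 in pSHF, and the adjacent balanced pair at chr4:98004124-98004436 had 9.37 in HT and 7.46 in pSHF. Sema3a encodes a secreted repellent of axons and neural crest cells. Its 4 sites had folds of 3.25 to 5.49 in HT and 4.60 to 7.42 in pSHF. One further pair leaned to HT, and the gene carried 1 HT-restricted and 8 pSHF-restricted peaks. Zmiz1, a coactivator gene of the PIAS-like family, had 4 sites, 0 HT-leaning and 5 balanced pairs, but 18 HT-restricted and 6 pSHF-restricted peaks. Of its 4 sites, 2 lay inside the gene body, and the site of highest fold, at chr14:25377927-25378704, had 6.81 in HT and 8.05 in pSHF.

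Genes with 3 sites each included Mecom, Casz1, Foxp4, Klhl29, Hivep2, Lrmda, Msrb3 and Slc24a3. Mecom encodes a zinc finger transcription factor, and its 3 sites had folds of 4.38 to 5.28 in HT and 5.10 to 6.94 in pSHF. Casz1, a zinc finger factor of heart development, had sites at 3.38 to 5.80 in HT and 3.93 to 7.52 in pSHF. Hivep2, a zinc finger factor gene, had a site at chr10:13966921-13967118 with 2.82 in HT and 4.70 in pSHF, and 15 reads in HT and 26 in pSHF. Lrmda had 3 pSHF-leaning sites, with folds of 3.65 to 4.39 in HT and 4.46 to 6.72 in pSHF, among 4 HT-restricted and 33 pSHF-restricted peaks, yet its gene-end pair had a centred ratio of 0.80 toward HT. At Msrb3, a methionine sulfoxide reductase gene, the median of 2 gene-end pairs was -0.44, on the side of the sites. Msrb3 and Slc24a3 also had 1 HT-leaning pair each. The gene-end pairs of Slc24a3 (0.45), Foxp4 (0.33) and Casz1 (0.13) lay toward HT, and that of Klhl29 was at -0.097. The ends of these genes thus went both ways, with more of them toward HT.

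Few stretches of the genome held several sites. Of 7747 windows of 100 kb with a distal pair, 1691 held a pSHF-leaning site, 104 held at least 2 and 5 held at least 3, against 1474, 126 and 10 windows for HT-leaning sites. The first window was at Maml3 with 4. The others held 3 each, at Draxin, at Irf2bpl and Lrrc74a, at Ppp1r32 and Syt7, and at Pip4p2. Draxin encodes a secreted axon guidance protein, and its site at chr4:148107899-148108503 had 4.60 in HT and 6.22 in pSHF, with 9 reads in HT and 18 in pSHF. The window at Pip4p2, a phosphoinositide phosphatase gene, had sites with 3.41 to 4.39 in HT and 4.85 to 6.46 in pSHF and no balanced pair, but 1 HT-leaning pair at 7.44 in HT and 3.77 in pSHF.

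Hedgehog pathway genes had 6 pSHF-leaning sites among 22 distal pairs (27.3%, 10.7 to 50.2), against 15.7% of all distal pairs, and 3 HT-leaning pairs. The interval holds the share of all distal pairs. Gas1, a co-receptor for Hedgehog ligands, had 2 distal pairs and both leaned to the pSHF. They lay 89285 and 63837 bp from the gene, inside the noncoding gene A530065N20Rik. The first, at chr13:60085041-60085342, had 4.90 in HT and 6.49 in pSHF. The second, at chr13:60110250-60110894, had 6.58 in HT and 8.98 in pSHF. The gene end of Gas1 had a centred ratio of -0.01. Hhip encodes a membrane protein that binds Hedgehog ligands and is itself a target of the pathway. Its 1 distal pair, at chr8:80049076-80049714 inside the gene, had 4.78 in HT and 8.53 in pSHF (centred -1.12), with 8 reads in HT (3.45 to 15.8) and 20 in pSHF (12.2 to 30.9). Ptch1, the receptor gene and a target, had a site 36391 bp away with 4.39 in HT and 6.62 in pSHF, and 2 balanced pairs. The gene-end pair of Ptch1 had a centred ratio of 0.16.

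The transcriptional effectors of the pathway had 1 site each at Gli2 and Gli3 and 0 at Gli1. At Gli2, whose product is the main activator, the site at chr1:118982491-118982795 had 3.65 in HT and 5.06 in pSHF beside 4 balanced pairs, and its gene-end pair had a centred ratio of -0.33. At Gli3, whose product acts mainly as a repressor, the site at chr13:15664993-15665156 had 4.81 in HT and 6.23 in pSHF beside 1 HT-leaning and 1 balanced pair. The median of the 2 gene-end pairs of Gli3 was -0.03. Gli1, a target gene of the pathway, had 1 distal pair, and it leaned to HT. The sites of the pathway thus lay both at its ligand-binding proteins and at its effectors, where most distal pairs did not lean to the pSHF. Those at Gas1 were part of a stretch with 0 HT-restricted and 11 pSHF-restricted peaks.

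At genes of second heart field progenitors the share of pSHF-leaning sites was 5 of 33 (15.2%, 5.11 to 31.9), the same as the number of HT-leaning ones. Isl1, the LIM homeobox gene that marks the field, had a site 96508 bp away, at chr13:116201569-116201961, with 4.93 in HT and 7.38 in pSHF. Nr2f2, an orphan nuclear receptor of atrial and venous identity, had 1 site with 5.48 in HT and 6.38 in pSHF, and 3 balanced pairs. Hoxb1, an anterior Hox gene expressed in the posterior field, had 2. Foxf1 had 1 balanced pair, Osr1 had 1 HT-leaning and 1 balanced pair, and Tbx5 had the same. Wnt2 and Aldh1a2 had 0 distal pairs. The restricted peaks of the list were mostly those of the pSHF. Its shares of pSHF-leaning and HT-leaning pairs, 15.2% each, lay near the 15.7% and 14.0% of all distal pairs. With pileup in place of fold, 10 of the 33 pairs passed the pSHF limit (30.3%), against 24.5% of all distal pairs.

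Hox genes had the highest share of any list, 4 of 7 (57.1%, 18.4 to 90.1), against 15.7% of all distal pairs. They had 0 HT-leaning pairs. These genes set position along the body axis. The count is small and the genes are clustered, so that neighbouring sites share their surroundings. At a limit of -1 in place of -0.5, 0 of the 7 passed, against 1.98% of all distal pairs. Both sites of Hoxb1 lay outside the gene. The site at chr11:96407295-96408060, 39583 bp from Hoxb1, had 4.25 in HT and 6.64 in pSHF. It held 7 reads in HT (2.81 to 14.4) and 21 in pSHF (13.0 to 32.1), and its peak was 121 bp wide in HT and 766 bp wide in pSHF. The other, at chr11:96396950-96397571 and 29129 bp from Hoxb1, had 6.74 in HT and 7.98 in pSHF. Hoxc4 had 1 site with 4.25 in HT and 5.98 in pSHF, and Hoxa3 had 1 with 4.45 in HT and 5.45 in pSHF.

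Cofactors of Hox proteins and the retinoic acid pathway had like shares, each with 5 of 20 (exact 95% interval of the share 8.66 to 49.1%). Of all distal pairs 15.7% leaned to the pSHF, a value which that interval holds, and 14.0% leaned to HT. Meis2, a TALE homeobox gene, had a site 1792 bp from the gene with 3.98 in HT and 6.14 in pSHF. It held 12 reads in HT (6.20 to 21.0) and 31 in pSHF (21.1 to 44.0). Meis2 also had a second site inside the gene with 3.84 in HT and 6.49 in pSHF. Pknox2 had 2 sites and Meis1 had 1, and 4 pairs of the list leaned to HT. In the retinoic acid list, Aldh1a1, a synthesis enzyme, had a site at chr19:20508502-20508860 with 4.39 in HT and 8.15 in pSHF (centred -1.18) and 7 reads in HT and 16 in pSHF. Rxra, a retinoid receptor gene, had 1 site 50274 bp away with 3.77 in HT and 6.63 in pSHF. Rarb, another receptor gene, had 1 site with 3.84 in HT and 4.95 in pSHF beside 7 balanced pairs. Of the retinoic acid pairs, 1 leaned to HT. With 50% reciprocal overlap of the peaks the retinoic acid list had 0 of 14 pSHF-leaning pairs, and a stricter q, 5 or more on the −log10 scale in both peaks, left 0 of 8. The list of Hox cofactors had 4 of 16 and 1 of 7 under these settings. Of all distal pairs 13.5% leaned to the pSHF with reciprocal overlap and 10.5% at the stricter q.

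**Figure D5:**
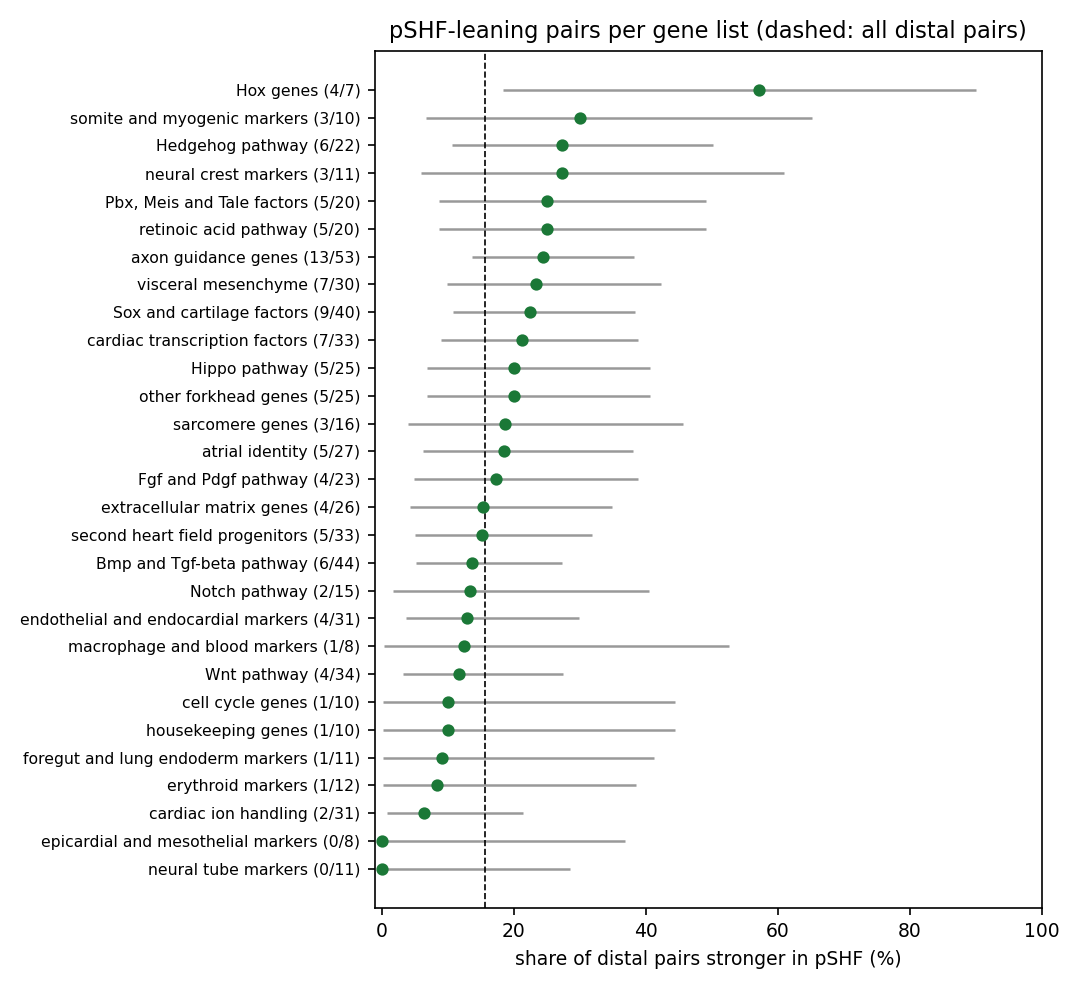
Percentage of distal pairs at the genes of each list that leaned to the pSHF, with exact Clopper-Pearson 95% intervals, beside the 15.7% of all distal pairs. Apart from the Hox genes, with 4 of 7 and a lower bound of 18.4%, every interval holds that value.

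Genes of visceral mesenchyme and cartilage carried sites in a mix with HT-leaning ones, while axon guidance, forkhead and matrix genes had few HT-leaning pairs. Of all distal pairs 15.7% leaned to the pSHF and 14.0% to HT. The visceral mesenchyme list had 7 of 30 (23.3%, 9.93 to 42.3) and 8 HT-leaning pairs. Both distal pairs of Six2, a homeobox gene of gut and kidney mesenchyme, leaned to the pSHF, and the stronger, at chr17:85645724-85646077, had 5.31 in HT and 8.69 in pSHF. Sox and cartilage factors had 9 of 40 (22.5%, 10.8 to 38.5) and 12 HT-leaning pairs. Sox5 had a site at chr6:144209498-144209784 with 6.20 in HT and 9.43 in pSHF, and 13 reads in HT and 29 in pSHF. Axon guidance genes had 13 of 53 (24.5%, 13.8 to 38.3) and 4 HT-leaning pairs. Besides Sema3a, Unc5c, a netrin receptor gene, had 2 sites, of which chr3:141797729-141798166 had 3.84 in HT and 6.64 in pSHF. Nrp2, a semaphorin receptor gene, had 1 site with 4.39 in HT and 6.79 in pSHF. Forkhead genes other than those of the field had 5 of 25 (exact 95% interval of the share 6.83 to 40.7%), of which 3 lay at Foxp4, and extracellular matrix genes had 4 of 26 (15.4%, 4.36 to 34.9).

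Other signalling pathways lay near the 15.7% of all distal pairs. Bmp and Tgf-beta genes had 6 of 44 (13.6%), Fgf and Pdgf genes 4 of 23 (17.4%), Notch genes 2 of 15 (13.3%), Wnt genes 4 of 34 (11.8%) and Hippo genes 5 of 25. Some of their sites were among the more unequal ones. Smad3, a transducer of Tgf-beta signals, had 2 sites. The one inside the gene, at chr9:63716152-63716507, had 3.98 in HT and 7.71 in pSHF (centred -1.24), and the other, 45519 bp away, had 4.36 in HT and 7.43 in pSHF. Ltbp1, whose product stores latent Tgf-beta in the matrix, had a site at chr17:74993923-74994280 with 5.52 in HT and 10.9 in pSHF, and 12 reads in HT and 26 in pSHF. Wwtr1, which encodes the Hippo effector TAZ, had a site with 5.48 in HT and 8.11 in pSHF. Amotl1, an angiomotin gene that restrains Hippo effectors, had 2, and 1 of them lay over the promoter window shown above. Tead1, the partner factor gene of these effectors, had 2 pSHF-leaning and 2 HT-leaning pairs.

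Cardiac transcription factor genes also had sites, with 7 of 33 (21.2%, 8.98 to 38.9) and 4 HT-leaning pairs. Of all distal pairs 15.7% leaned to the pSHF and 14.0% to HT. Beside these pairs lay 79 HT-restricted and 28 pSHF-restricted peaks. Gata4 had a site inside the gene, at chr14:63255917-63256245, with 6.78 in HT and 8.45 in pSHF and 19 reads in HT and 25 in pSHF. Tbx20 had 1 with 3.53 in HT and 5.30 in pSHF. Hand2 had 1 with 4.76 in HT and 6.06 in pSHF, where 26 reads lay over the HT summit and 24 over the pSHF summit. Nkx2-5 had 0 distal pairs, and the 6 of Mef2c were balanced. Atrial identity genes had 5 of 27 (18.5%, 6.30 to 38.1), and cardiac ion handling genes had 2 of 31 (6.45%, 0.791 to 21.4) and 7 HT-leaning pairs. Each of these intervals holds the 15.7% of all distal pairs.

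The 3 sites of the sarcomere list leaned to the pSHF by fold and not by reads. They made up 18.8% (4.05 to 45.6) of its 16 distal pairs, against 15.7% of all distal pairs. The atrial myosin light chain genes Myl7 and Myl4 had 1 site each. At Myl7 the fold was 4.14 in HT and 4.93 in pSHF, but 18 reads lay over the HT summit and 14 over the pSHF summit. At Myl4 the fold was 6.77 in HT and 7.92 in pSHF, with 27 reads in HT and 20 in pSHF. At Ldb3, a Z-disc gene, the fold was 3.09 in HT and 3.64 in pSHF, with 11 reads in HT and 8 in pSHF. The local background was higher in HT at each of the 3, for instance 3.59 reads in HT and 2.04 in pSHF at Myl7. Their centred pileup ratios were 0.04, 0.11 and 0.14. With pileup in place of fold none of the 3 passed the limit. Of the 16 pairs of the list 1 did, against 24.5% of all distal pairs.

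Shares at marker genes of other cell types lay on both sides of the 15.7% of all distal pairs, on small counts. Somite and myogenic genes had 3 of 10 (30.0%, 6.67 to 65.2), at Pax1, a sclerotome gene, and at Pax9. The stronger Pax1 site, at chr2:147307781-147308087, had 6.03 in HT and 7.76 in pSHF. Neural crest genes had 3 of 11 (27.3%, 6.02 to 61.0), with 1 each at Ets1, Foxd3 and Snai2. Foregut endoderm genes had 1 of 11 (9.09%), endothelial genes 4 of 31 (12.9%), macrophage genes 1 of 8 (12.5%), erythroid genes 1 of 12 (8.33%, with 6 HT-leaning), cell cycle genes 1 of 10 and housekeeping genes 1 of 10. Neural tube genes had 0 of 11 and epicardial genes 0 of 8. The erythroid list's single site lay 35515 bp from Bcl11a, at chr11:24208853-24209393, with 5.84 in HT and 9.98 in pSHF, and Bcl11a is also expressed in the nervous system. Over all 29 lists, 106 of 586 distal pairs (18.1%) leaned to the pSHF, and 15 lists lay above 15.7%.

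The promoter windows that held pSHF-leaning sites were searched for the letters of transcription factor motifs on both strands. A pSHF summit lay in such a window at 3.16% (2.39 to 4.10) of pSHF-leaning sites, against 4.68% (3.69 to 5.85) of HT-leaning and 7.42% (6.85 to 8.03) of balanced sites. The 58 windows at the 55 sites had a median GC content of 60.5%, against 62.3% for 699 windows with another distal summit and 53.0% for all 32619 windows. The MEIS letters TGACAG occurred in 9 of the 58 (15.5%), 17.0% of the 699 and 18.9% of all windows, and were found in the Amotl1 and Mecom windows. The E-box CATCTG, bound by HAND and TWIST factors, occurred in 8 of the 58 (13.8%), 11.9% of the 699 and 17.1% of all windows. The TEAD letters GGAATG occurred in 6 of the 58 (10.3%), 13.6% of the 699 and 14.6% of all windows. The T-box letters AGGTGTGA occurred in 3 windows (5.17%, 1.08 to 14.4), against 0.286% of the 699 and 1.28% of all windows. Of the 3, 2 were overlapping windows of the noncoding gene Gm44507, which show the same bases, and the third was at E2f2. The GATA letters AGATAAG occurred in 1 window (1.72%), against 2.15% of the 699 and 3.04% of all windows. The forkhead letters TGTTTAC also occurred in 1, against 2.29% of the 699 and 3.67% of all windows. The GLI (GACCACCCA), PBX-HOX (TGATTGAT) and NKX2 (CACTTGA) letters, and the MEF2 and CTCF motifs, occurred in 0 of the 58. For 0 of 58 windows the exact 95% upper bound is 6.16%. GLI letters occurred in 0.572% of the 699 and 0.254% of all windows, and PBX-HOX letters in 0.286% and 0.751%. For NKX2 these shares were 2.86% and 3.08%, for MEF2 0% and 0.166%, and for CTCF 0% and 0.0123%. With shares this low, 0 of 58 does not show that the sites lack these motifs. Promoter windows are a small and GC-rich share of the sites, and the sites outside them were not searched.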

How the data were processed

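ATAC-seq had been run on 3 samples each of atria (HT) and pSHF, and 1 peak list per tissue was analysed. The submitters' processing notes name MACS2 2.1.1, Bowtie2 2.3.2, Picard and SAMtools 1.5 and the build mm10, with no roles or settings, and whether samples were pooled first is not given in the sources. Each deposited line is a summit with its offset in the peak, a score, the fold enrichment (a ratio to the caller's background), and the −log10 p and −log10 q, all computed by the authors' peak caller. The deposited lists held 60223 HT and 58887 pSHF lines. Lines with equal start and end were merged, keeping the summit of highest fold, which left 49267 HT and 44018 pSHF peaks.

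Genes (49550, of which 21627 protein-coding) came from a RefSeq table of GRCm38.p6, whose coordinates are those of mm10. A pair's gene is the nearest protein-coding gene body to the pSHF summit within 100 kb. Reads per summit were recovered on the formula (pileup + 1)/(background + 1), with genome-wide backgrounds of 0.824 in HT and 0.857 in pSHF. Over all lines a summit held a median of 14 reads in HT and 13 in pSHF. The totals of reads are not in these lists, and overlapping reads over a summit need not be independent molecules, so intervals cover counting error only.

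Named genes are the 12 with the most sites, up to 3 per list, 20 chosen genes, and the sites of lowest ratio, highest pSHF fold, nearest the limit or in the 5 fullest windows. Genes or sites named outside this rule were chosen after their values were seen. The sites and the 29 gene lists (458 symbols, all found, 35 in more than 1 list) were chosen with earlier results of these data known. No test was run, since the lists hold no value per sample. Motifs were searched in RefSeq promoter windows only, in place of the windows around all summits that had been planned, because no genome was used here. Alternatives changed the overlap, the distance that counts as distal, the measure, the summit kept, the q threshold, the limit, the centring and the gene assignment. Recovery of pairs and pileups was tested on simulated data. Python 3.11.15, pandas 2.3.3, numpy 2.4.6, scipy 1.17.1 and matplotlib 3.10.9 were used.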

Additional observations from a re-analysis of the deposited data

How the results depend on the processing

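No paired analysis was possible because each tissue has 1 peak list and the sample numbers 1 to 3 carry no values of their own; for the same reason no replicate could be left out. The number of pSHF-leaning sites, 1801 as reported, was 1144 with 50% reciprocal overlap (1013 of them among the 1801), 2818 with summit pileup in place of fold (1702 shared), 443 with both peaks at a −log10 q of at least 5 (384 shared), 228 at a limit of -1 and 626 without centring. It stayed within 1.5 times at 5 kb from gene ends (1316), with the summit of highest −log10 p (1801) and with centring on distal pairs (1608). The share of distal pairs, 15.7% as reported, was 13.5% with reciprocal overlap, 17.0% at 5 kb, 24.5% with pileup, 10.5% at the stricter q, 1.98% at the limit of -1, 5.44% without centring and 14.0% with centring on distal pairs. Sites at listed genes, 106 as reported, numbered 69 with reciprocal overlap, 185 with pileup, 28 at the stricter q, 14 at the limit of -1 and 40 without centring. The share inside protein-coding genes (51.1%) was 55.5% at the stricter q. The share with the wider pSHF peak (78.8%) was 71.8% with reciprocal overlap, 76.8% with pileup, 92.5% at the limit of -1 and 86.3% without centring. The share with a pSHF-restricted peak within 50 kb (61.0%) was 75.5% with reciprocal overlap, which also makes more peaks restricted, and 64.1% with pileup. The causes of the other shifts were not tested.

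Under each of the 11 alternatives the Hedgehog, Tale, Sox and axon guidance lists lay above the share of all distal pairs. The Hox, Hippo and visceral mesenchyme lists did so under 10, and the retinoic acid, cardiac transcription factor and neural crest lists under 9. The cardiac ion handling and housekeeping lists did so under 0. All 11 reuse the same peak lists, so these counts are not independent support. The summit of highest −log10 p left all 1801 sites and every list's counts unchanged, and the gene-assignment alternatives kept the 1801. As reported, the interval of each list named here but Hox holds the share of all distal pairs. Some of the shares above rest on 1 site, as Hedgehog and Tale each do at the stricter q (1 of 7). Hedgehog (1 of 22), Tale (1 of 20) and Sox (1 of 40) do so at the limit of -1. The retinoic acid list had 0 of 14 with reciprocal overlap and 0 of 8 at the stricter q. Of all distal pairs 13.5% and 10.5% leaned to the pSHF under these settings. The limits of these data are 1 list per tissue, summits of few reads, and a site's dependence on passing both thresholds. A site open in the pSHF whose HT peak missed the threshold counts as restricted and is not among the 1801, so the HT values cannot fall below that threshold.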

Other observations

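On chromosome 14, where 21.3% of distal pairs leaned to the pSHF by fold, 31.0% did so by pileup, against 24.5% of all distal pairs. This chromosome was picked for its highest share by fold, and pileup was recovered from that fold, so the pileup share is a description. A pSHF peak of 1 kb or more was found at 3 of 1801 pSHF-leaning sites (0.167%), 1 of 1612 HT-leaning sites (0.0620%) and 64 of 8091 balanced sites (0.791%).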
